A study of Mus musculus with 2 samples.

Results

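The 38 genes described here carry a fatty acid from the blood lipoprotein to acetyl-CoA. They were named by symbol for their known roles in uptake, activation, mitochondrial import and beta-oxidation, with earlier results of these data known. Their levels beside those of other genes are therefore a description and no test of the set. All 38 were found among the 55536 mouse genes of the tables. The hearts came from 2 B6CASTF1/J mice, a first-generation cross of C57BL/6J with CAST/EiJ. Both were adult males aged 8 to 10 months, and each gave 1 total RNA library reduced in ribosomal RNA from 300 ng of RNA. The labels call the animals 4 and 2 and give both the same donor entry. The labels name no treatment and a single group, so the data describe levels and the spread between 2 libraries, with no p-value. Values rest on mm10, an assembly of C57BL/6J, with the GENCODE M21 annotation.

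The heart draws most of its energy from fatty acids. Lipoprotein lipase frees them from lipoproteins at the vessel wall, CD36 and fatty acid transport proteins bring them into the cell, and fatty acid-binding proteins carry them through the cytosol. Acyl-CoA synthetases join them to coenzyme A, the carnitine shuttle moves the acyl group into the mitochondrion, and repeated rounds of dehydrogenation, hydration, a further dehydrogenation and thiolysis shorten the chain. Malonyl-CoA restrains the shuttle at its entry, and thioesterases release free fatty acid again. Most steps have several paralogs that differ in chain length, tissue or compartment.

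The libraries held 39979844 expected counts on mouse genes in animal 4 and 42047303 in animal 2. Levels are in TPM, the length-corrected share of a transcript or gene in its library, and ± is the SD over 2 libraries (n = 2). The same libraries were also deposited in another transcript table, called the second quantification below. All 38 genes reached 1 TPM in both libraries, and also in the second quantification. Their median was 136 ± 4.93 TPM, set beside 1.01 ± 0.0424 TPM over all 22015 nuclear protein-coding genes and 8.24 ± 0.0849 TPM over the 10755 of those at 1 TPM or more in both. The members made up 0.173% of nuclear protein-coding genes and held 3.27 ± 0.0497% of the TPM of those genes. In both libraries 21 members, or 55.3%, stood at 100 TPM or more, where 2.29% of nuclear protein-coding genes did, and 15 ranked in the top 1%. At the other end 6 members stayed under 10 TPM in both.

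**Figure D1:**
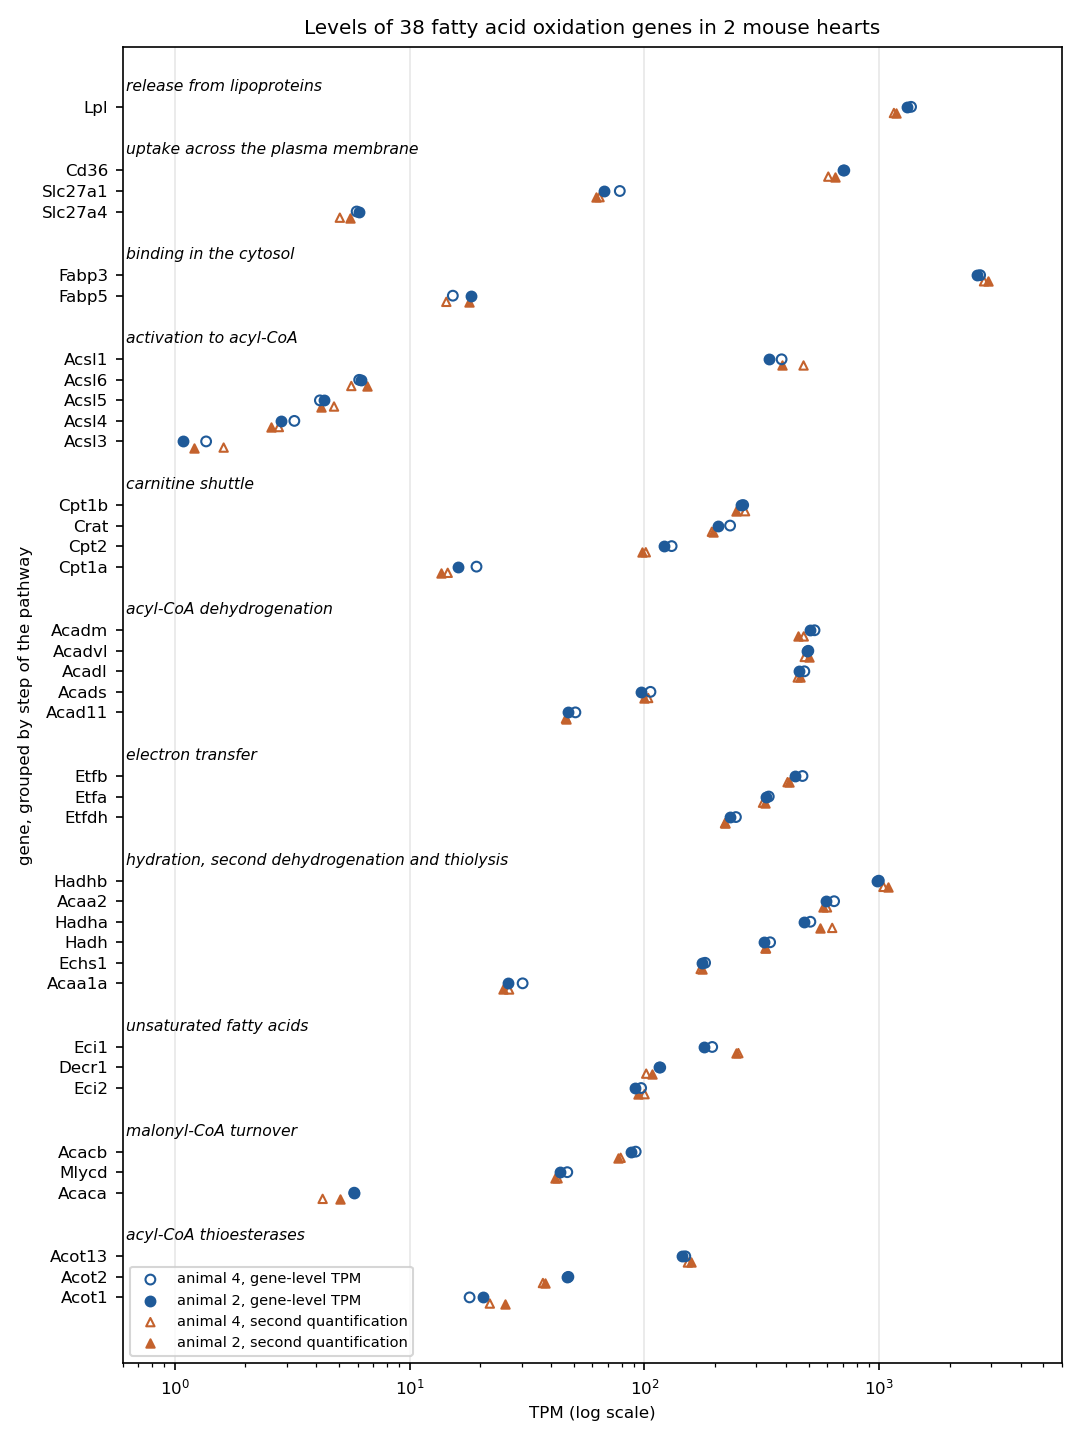
TPM of the 38 genes on a log axis, grouped by step of the pathway from lipoprotein lipase at the top to the thioesterases at the bottom, with open symbols for animal 4 and filled symbols for animal 2. Circles are gene-level TPM and triangles the second quantification. Within a step the members can spread more than 100-fold, while the 2 animals lie close together, from Acsl3 near 1 TPM to Fabp3 at 2688 TPM in animal 4 and 2607 in animal 2.

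The tissue matched its label. The heart muscle markers Myh6, Tnnt2, Tnni3, Myl2, Ryr2 and Actn2 all passed 1 TPM, and their summed level was 23273 TPM in animal 4 and 21400 TPM in animal 2. The 6 endothelial markers summed to 194 and 193 TPM and the 4 macrophage markers to 34.5 and 34.6 TPM in animals 4 and 2. The 7 adipocyte markers summed to 3.02 TPM in animal 4 and 11.8 TPM in animal 2, with all 7 lower in animal 4. The 5 hepatocyte markers were at or near 0, with 12 counts in animal 4 and 13 in animal 2 in all, and Apoa1 and Fga had none. Of 5 fast skeletal muscle markers, Ckm and Acta1 are also heart genes, and the others, Myh4, Myh1 and Tnnt3, averaged between 0.130 and 2.58 TPM. In tissue RNA, fewer cells of a type and less RNA per cell cannot be told apart.

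At the vessel wall, Lpl, which encodes lipoprotein lipase (ENSMUSG00000015568, chromosome 8, 68880491 to 68907448), was at 1366 TPM in animal 4 and 1307 TPM in animal 2. Only Fabp3 was higher among the 38 genes. The second quantification gave 1167 ± 17.5 TPM. Among other genes of uptake, Gpihbp1, whose product anchors the lipase on capillary endothelium, had 33.9 TPM in animal 4 and 39.4 TPM in animal 2. Vldlr, a lipoprotein receptor, had 93.6 and 89.5 TPM in animals 4 and 2, and Angptl4, an inhibitor of the lipase, averaged 3.04 ± 0.346 TPM.

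Uptake across the plasma membrane was led by Cd36, the fatty acid translocase (chromosome 5, 17781690 to 17888801), with 709.8 TPM in animal 4 and 700.2 TPM in animal 2. Slc27a1, fatty acid transport protein FATP1, followed with 78.6 TPM in animal 4 and 67.3 TPM in animal 2. Slc27a4, encoding FATP4, was at 6.01 ± 0.0778 TPM. Cd36 exceeded Slc27a1 by a log2 ratio of 3.28 ± 0.14, or 9.69-fold, and Slc27a1 exceeded Slc27a4 by 3.60 ± 0.18, or 12.1-fold, and both orders held in the second quantification. Within the Slc27a family, Slc27a1 held 91.9 ± 0.962% of TPM and Slc27a4 7.62 ± 0.848%. The other 4 genes of the family, Slc27a2, Slc27a3, Slc27a5 and Slc27a6, lay under 1 TPM, and Slc27a5 had no count in either library. A count of 0 allows up to 0.0750 CPM (counts scaled to library size) in animal 4 and 0.0713 CPM in animal 2, for counting error only. Over protein-coding transcripts only, Cd36 exceeded Slc27a1 by 22.8-fold, and Slc27a1 exceeded Slc27a4 by a log2 ratio of 2.38.

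The cytosolic binding proteins showed a wide gap. Fabp3, the heart fatty acid-binding protein (ENSMUSG00000028773, chromosome 4, 130308595 to 130315463), reached 2688 TPM in animal 4 and 2607 TPM in animal 2 and ranked 14th among nuclear protein-coding genes. Fabp5, the epidermal form, had 15.3 TPM in animal 4 and 18.3 TPM in animal 2. The log2 ratio of Fabp3 over Fabp5 was 7.31 ± 0.22, or 158-fold, and 178-fold in the second quantification. Fabp4, the form of fat cells and capillary endothelium, lay between them at 183 TPM in animal 4 and 190.2 TPM in animal 2. Over the 7 Fabp genes of the lists, Fabp3 held 92.9 ± 0.388% of TPM, Fabp4 6.54 ± 0.303% and Fabp5 0.590 ± 0.0857%. Fabp1, the liver form, Fabp2, the intestinal form, and Fabp6, the ileal form, had no count, and Fabp7, the brain form, had 2 counts in each library. Of the 31-base stretches of the Fabp3 transcript, 37.3% occur also in other genes, chiefly the pseudogene Fabp3-ps1, which held 94.8 counts in animal 4 and 99.2 in animal 2, against 63806 and 65584 for Fabp3. For Fabp5 the shared portion was 33.1%, led by the pseudogene Gm6166 with 80.1 and 87.6 counts in animals 4 and 2, against 463 and 605 for Fabp5.

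Among the 5 Acsl genes of activation to acyl-CoA, a single gene held most of the level. Acsl1, a long-chain acyl-CoA synthetase (ENSMUSG00000018796, chromosome 8, 46471037 to 46536051), had 384 TPM in animal 4 and 341 TPM in animal 2. Acsl6, known mainly from brain, came next with 6.10 TPM in animal 4 and 6.18 TPM in animal 2. Acsl5, the form of intestine and liver, was at 4.24 ± 0.127 TPM, Acsl4, which prefers arachidonate, at 3.04 ± 0.276 TPM, and Acsl3, of lipid droplets and the endoplasmic reticulum, at 1.22 ± 0.198 TPM. Acsl1 thus held 96.1 ± 0.241% of the TPM of the 5 genes and exceeded the others by 58.9-fold (Acsl6) to 298-fold (Acsl3). Each of these neighbours was separated in both libraries and in both quantifications. The Acsl1 level was 430 ± 64.5 TPM in the second quantification, in which animal 4 was again the higher. Acsl5 overlaps Zdhhc6 on the opposite strand, which had more counts than Acsl5 itself, 542 in animal 4 and 495 in animal 2 against 411 and 482. The kit marks strand, but whether counting used it is not given in the sources used here. Acsl3 overlaps Utp14b on its own strand, which had 61.95 and 90.5 counts in animals 4 and 2, against 122 and 118 for Acsl3. The brain and testis synthetases Acsbg1 and Acsbg2 were under 1 TPM, Acsbg2 with no count.

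In the carnitine shuttle the muscle form of the entry enzyme dominated. Cpt1b, muscle carnitine palmitoyltransferase 1 (ENSMUSG00000078937, chromosome 15, 89416405 to 89425863), had 263 TPM in animal 4 and 257 TPM in animal 2. Crat, carnitine acetyltransferase, which buffers acetyl-CoA as acetylcarnitine, followed with 232 TPM in animal 4 and 206 TPM in animal 2. Cpt2, the inner membrane enzyme, was at 126 ± 6.97 TPM and the liver form Cpt1a at 17.7 ± 2.23 TPM. All neighbours in this order were separated in both libraries and in both quantifications. Cpt1b exceeded Cpt1a by a log2 ratio of 3.88 ± 0.16, or 14.8-fold, and Cpt2 by 2.07-fold. Cpt2 was lower than Crat, by a log2 ratio of -0.80 ± 0.04. Cpt1c, the brain form, lay at 0.550 ± 0.127 TPM, so that Cpt1b held 93.5 ± 0.599% of the TPM of the 3 Cpt1 genes. Slc25a20, the translocase between Cpt1 and Cpt2, had 88.3 TPM in animal 4 and 89.4 TPM in animal 2. Of the 31-base stretches of Cpt1b, 93.7% also belong to Gm44502, a gene model annotated over it on the same strand, which took 457 counts in animal 4 and 729 in animal 2, or 2.86% of the Cpt1b count.

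Acyl-CoA dehydrogenation, the entry to each round, was shared by 3 genes of nearly equal level. Acadm, the medium-chain enzyme (chromosome 3, 153922357 to 153944632), had 530.0 TPM in animal 4 and 507 TPM in animal 2. Acadvl, the very-long-chain enzyme (chromosome 11, 70010183 to 70015411), had 499 and 493 TPM in animals 4 and 2. Acadl, the long-chain enzyme (chromosome 1, 66830839 to 66863277), had 479.6 and 456 TPM in animals 4 and 2. The 3 genes differed by 1.11-fold at most, and their order was not stable across quantifications. Acadm exceeded Acadvl by a log2 ratio of 0.06 ± 0.03, but lay below it by -0.08 in the second quantification, where Acadm had 464 ± 18.2 TPM, Acadvl 491 ± 13.7 TPM and Acadl 455 ± 7.13 TPM, and the order of Acadl and Acadm differed between the animals. Acads, the short-chain enzyme, was lower at 102 ± 6.36 TPM, 5.11-fold below Acadm. Acad11, which prefers very long chains, was at 49.1 ± 2.38 TPM. Over the 4 enzymes of very long, long, medium and short chains, Acadm held 32.7 ± 0.122%, Acadvl 31.3 ± 0.585%, Acadl 29.5 ± 0.235% and Acads 6.41 ± 0.227% of TPM. Acadsb, which acts on short branched chains, was at 88.7 TPM in animal 4 and 83.5 TPM in animal 2.

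The electrons of this step pass through the electron transfer flavoprotein to the ubiquinone pool. Etfb, its beta subunit (chromosome 7, 43444083 to 43457800), had 471 TPM in animal 4 and 438 TPM in animal 2. Etfa, the alpha subunit (chromosome 9, 55454508 to 55512243), had 338 and 329 TPM in animals 4 and 2. Etfdh, the dehydrogenase that accepts the electrons in the inner membrane, was at 238 ± 10.1 TPM. Etfa stood below Etfb by a log2 ratio of -0.45 ± 0.04 and Etfb above Etfdh by 0.93 ± 0.01, and the second quantification kept both orders. Expected counts, with no length correction, gave the opposite order for both pairs, with log2 ratios of 0.37 for Etfa over Etfb and -0.72 for Etfb over Etfdh. Gm45233, annotated on the same strand, shares 68.0% of the 31-base stretches of Etfb but took 9.17 counts in animal 4 and 11.9 in animal 2.

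Among the remaining reactions of each round Hadhb was the highest. It encodes the beta subunit of the trifunctional protein, which carries the thiolase, while the alpha subunit, encoded by Hadha, carries hydratase and dehydrogenase activities. Hadhb (ENSMUSG00000059447, chromosome 5, 30155248 to 30184593) had 996 TPM in animal 4 and 976 TPM in animal 2. Acaa2, the mitochondrial thiolase for shorter chains, had 642 TPM in animal 4 and 595 TPM in animal 2. Hadha (ENSMUSG00000025745, chromosome 5, 30118304 to 30155162) followed with 509 TPM in animal 4 and 479 TPM in animal 2. Hadh, the medium- and short-chain 3-hydroxyacyl-CoA dehydrogenase, was at 333 ± 14.7 TPM, Echs1, the short-chain hydratase, at 178 ± 4.16 TPM, and Acaa1a, a peroxisomal thiolase, at 28.2 ± 2.93 TPM. Over protein-coding transcripts only, Hadha was at 153 ± 0.997 TPM and its place turned, with a log2 ratio of -1.11 for Hadha over Hadh and 0.20 for Echs1 over Hadha. The second quantification gave 594 ± 50.9 TPM for Hadha and 586 ± 17.7 TPM for Acaa2, so these neighbours were not separated there. Acaa2 exceeded Acaa1a by 21.97-fold, and its other paralog Acaa1b lay at 0.485 ± 0.0636 TPM, with 43.8% of the 31-base stretches of Acaa1a shared with it. Hadhb shares 66.1% of its 31-base stretches with other genes, mainly the pseudogene Gm13910, which was given 4532 counts in animal 4 and 4594 in animal 2, against 50398 and 52250 for Hadhb.

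Hadha and Hadhb are neighbours that point away from each other, and the annotation leaves 85 bases between them (chromosome 5, 30155163 to 30155247). The sequence is shown because the genes of both subunits of the complex begin on either side of it. The stretch below is from the RefSeq promoter table (GRCm38.p6, the assembly behind mm10), on the plus strand, chr5:30155143-30155267. Capitals mark the bases outside both genes, and the flanks are the 5' ends of Hadha on the left and Hadhb on the right. Of the 85 bases, 69.4% are G or C. The promoter windows of the members, which are longer, had a median of 60.3%, from 39.7% to 76%. Over all promoters of that table the median was 52.7%.
Hadha to Hadhb: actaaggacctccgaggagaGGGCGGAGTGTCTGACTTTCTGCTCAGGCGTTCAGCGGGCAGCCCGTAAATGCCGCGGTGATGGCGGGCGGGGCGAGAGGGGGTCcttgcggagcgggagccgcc

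By TPM, Hadhb exceeded Hadha by a log2 ratio of 1.00 ± 0.04, or 2.00-fold, and by 1.80-fold in the second quantification. By expected counts the gap was 0.10 on the log2 scale, with 47609 for Hadha and 50398 for Hadhb in animal 4 and 48385 and 52250 in animal 2. By protein-coding transcripts only it was 2.26. Most of the Hadha level was placed on Hadha-201, a transcript of 2552 bases typed as processed transcript, that is without an annotated reading frame. It held 67.6% of the gene in animal 4 and 67.3% in animal 2, and 63.7 ± 5.79% in the second quantification. The coding transcript Hadha-205, of 4017 bases, held 30.2% in animal 4 and 31.8% in animal 2, and 15.0 ± 2.03% in the second quantification. A further 19.5 ± 5.48% lay in the second quantification on Hadha-204, a processed transcript of 323 bases that held 1.01 ± 1.00% in the transcript tables.

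Hadha-201 differs from Hadha-205 in 3 places, none of which adds a base. It starts 186 bases later, ends 1122 bases earlier and skips 157 bases inside the reading frame (chromosome 5, 30120688 to 30120719 and 30120066 to 30120190), a number that 3 does not divide. Of the 31-base stretches of Hadha-201, 99.05% also lie in Hadha-205, and 24 do not. The junction is shown since those 24 stretches are the sequence that tells Hadha-201 apart. Both lines are on the minus strand of mm10, from the GENCODE M21 transcripts, chr5:30119952-30120749 with introns left out. Capitals mark in Hadha-205 the 157 bases that Hadha-201 lacks, and in Hadha-201 the 10 bases on each side of the junction.
Hadha-205: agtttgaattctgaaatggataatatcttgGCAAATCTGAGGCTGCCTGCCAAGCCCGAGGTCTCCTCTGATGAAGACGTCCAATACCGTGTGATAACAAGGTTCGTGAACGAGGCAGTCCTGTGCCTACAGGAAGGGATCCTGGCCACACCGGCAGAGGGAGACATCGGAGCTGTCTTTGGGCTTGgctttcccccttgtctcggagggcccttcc
Hadha-201: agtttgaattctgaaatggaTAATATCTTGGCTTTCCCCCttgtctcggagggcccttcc
The tables give levels per transcript and no count of reads across the junction.

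Double bonds in the chain are handled by Eci1, Eci2 and Decr1. Eci1, a mitochondrial enoyl-CoA isomerase (chromosome 17, 24426641 to 24439348), had 194 TPM in animal 4 and 180.2 TPM in animal 2. Decr1, the mitochondrial dienoyl-CoA reductase (chromosome 4, 15917240 to 15945507), had 117 and 115 TPM in animals 4 and 2. Eci2, an isomerase of mitochondria and peroxisomes, was at 94.1 ± 3.86 TPM, 1.99-fold below Eci1. Eci1 had the largest rise between the quantifications of all 38 genes, to 249 ± 3.68 TPM, or 1.33 times its gene-level TPM, and the order of the 3 genes was the same in both.

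Of the enzymes that set malonyl-CoA, Acacb, the mitochondrial acetyl-CoA carboxylase 2 that makes it near Cpt1 (chromosome 5, 114146535 to 114250761), had 91.8 TPM in animal 4 and 87.8 TPM in animal 2. Mlycd, malonyl-CoA decarboxylase, which removes it (chromosome 8, 119394878 to 119411102), had 46.9 and 43.8 TPM in animals 4 and 2. Acaca, the cytosolic carboxylase 1 of fatty acid synthesis, had 5.81 TPM in both. Acacb held 93.9 ± 0.180% of the TPM of both carboxylases and exceeded Acaca by a log2 ratio of 3.95 ± 0.05, or 15.5-fold. Mlycd exceeded Acaca by 7.81-fold. The equal TPM of Acaca stood beside unequal counts, 871 in animal 4 and 1041 in animal 2, and its transcript shares differed too. The leading transcript, of 9026 bases, held 47.05% of the gene in animal 4 and 41.8% in animal 2. Acaca-202, of 9513 bases, held 0% in animal 4 and 10.75% in animal 2. Acaca-208, of 684 bases, held 9.33% in animal 4 and 0% in animal 2. The part of each in the equal TPM was not tested. The pseudogene Gm5182 shares 59.9% of the 31-base stretches of Acaca and took 138 counts in animal 4 and 187 in animal 2.

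Among the thioesterases, Acot13, which acts on medium and long chains, was highest with 149 TPM in animal 4 and 145 TPM in animal 2. Acot2, the mitochondrial form (ENSMUSG00000021226, chromosome 12, 83987861 to 83993873), had 47.4 and 46.7 TPM in animals 4 and 2, and its cytosolic neighbour Acot1 (ENSMUSG00000072949, chromosome 12, 84009490 to 84018371) had 18.0 and 20.6 TPM. Acot13 exceeded Acot2 by 3.13-fold, but by expected counts it was lower, with a log2 ratio of -0.11; its transcript has 721 bases and that of Acot2 2196. Acot2 exceeded Acot1 by 2.44-fold, by 1.58-fold in the second quantification and by a log2 ratio of 2.48 over protein-coding transcripts. A processed transcript of 801 bases held 51.5% of Acot1 in animal 4 and 60.8% in animal 2, and 71.4 ± 2.71% in the second quantification, and 61.2% of its 31-base stretches occur in Acot2. The full-length coding transcripts of Acot2 and Acot1 share 645 such stretches, 29.9% of those of Acot2 and 29.2% of those of Acot1.

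The sequences at the start of the reading frames show where the full-length coding transcripts of Acot2 and Acot1 begin to share 31-base stretches. Reads longer than 31 bases, which can reach past a shared stretch, were not considered. Acot2 has 1359 coding bases and Acot1 has 1257. Both are given from the start codon on the plus strand of mm10, from the GENCODE M21 transcripts, chr12:83987902-83988121 for Acot2 and chr12:84009510-84009606 for Acot1, and capitals mark bases inside a 31-base stretch that both transcripts hold. The first such base is number 175 of the reading frame in Acot2 and number 52 in Acot1, so the first 174 bases of Acot2 are outside any of them.
Acot2: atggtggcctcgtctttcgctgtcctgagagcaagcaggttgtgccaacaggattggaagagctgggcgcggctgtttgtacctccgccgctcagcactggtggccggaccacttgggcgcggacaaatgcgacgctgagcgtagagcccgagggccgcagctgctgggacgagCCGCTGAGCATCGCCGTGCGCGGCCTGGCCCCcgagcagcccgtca
Acot1: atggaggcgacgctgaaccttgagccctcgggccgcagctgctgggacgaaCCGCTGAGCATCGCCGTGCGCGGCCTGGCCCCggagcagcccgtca
Over the whole frame, 65.1% of the coding bases of Acot2 and 70.4% of those of Acot1 lie in shared stretches.

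**Figure D2:**
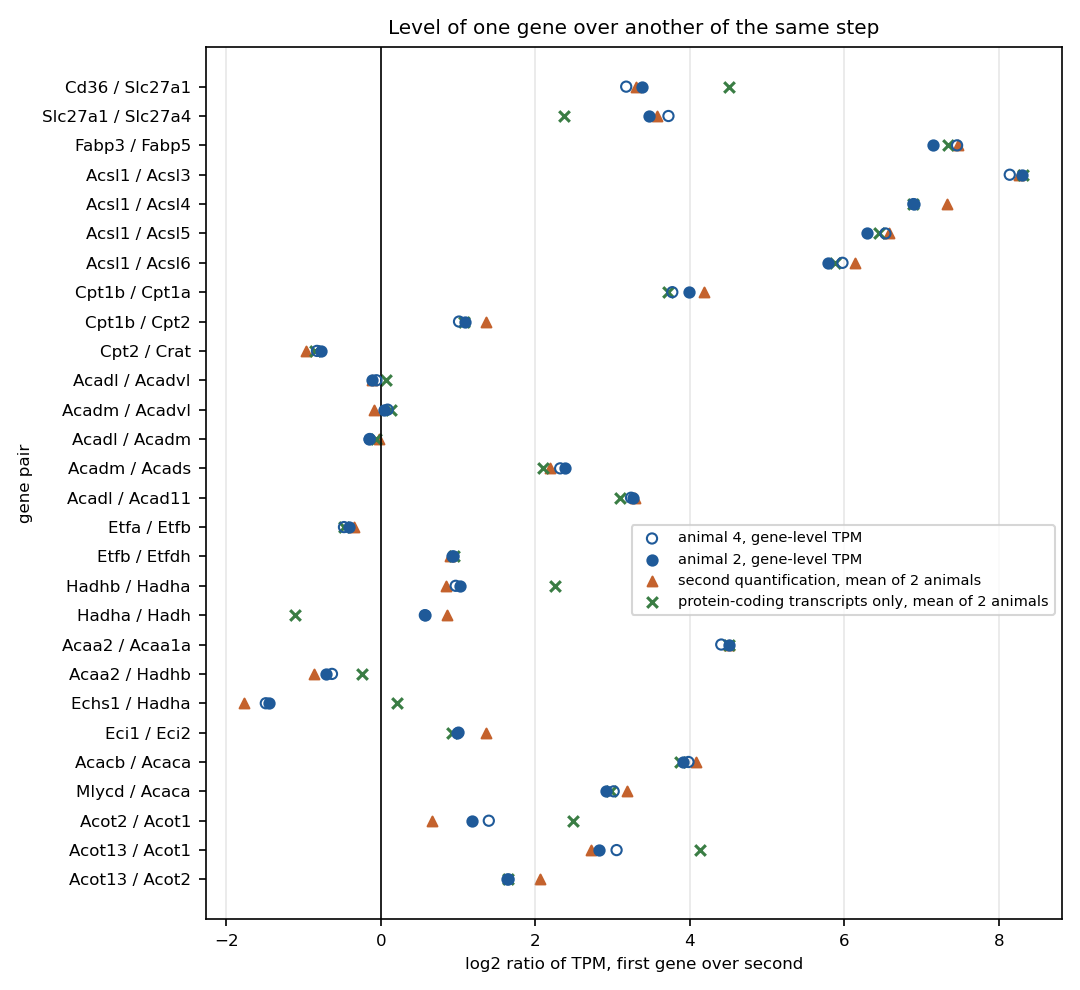
Log2 ratio of TPM for 28 pairs of genes of the same step, first gene over second, with open circles for animal 4, filled circles for animal 2, triangles for the mean of the second quantification and crosses for the mean over protein-coding transcripts only. The first gene was higher in 22 pairs and the second in 6, in both libraries. The crosses stand away from the circles chiefly for pairs with Hadha, Slc27a1 or Acot1.

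In each library 28 pairs of genes were compared, each within a step; most are paralogs or subunits, others partners in a step such as Mlycd and Acaca, and lipoprotein release has a single gene and no pair. The first gene was the higher in both libraries in 22 pairs and the lower in both in 6, so that both animals agreed on the order of all 28. The second quantification gave the same order for 26 pairs, and the other 2 were Acadm with Acadvl and Acadl with Acadm. Across the 38 genes, the second quantification was higher in both libraries for 9 and lower in both for 21, with ratios to gene-level TPM from 0.793 for Cpt2 to 1.33 for Eci1.

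Slc27a1 and Acot1 joined Hadha as genes with most of their level on transcripts that the annotation does not type as protein-coding. That part was 69.0 ± 1.12% for Hadha, 57.5 ± 0.611% for Slc27a1 and 56.1 ± 6.55% for Acot1. It was 29.2 ± 0.153% for Lpl, nearly all of it on Lpl-203, a transcript typed as a target of nonsense-mediated decay. It was 25.8 ± 0.0665% for Hadhb, 20.97 ± 1.13% for Eci1 and 20.95 ± 2.60% for Acadvl, mostly on short transcripts with a retained intron. All 7 also passed 20% in the second quantification, with 85.0% for Hadha, 47.3% for Slc27a1, 71.5% for Acot1, 24.1% for Lpl, 40.97% for Hadhb, 31.04% for Eci1 and 32.3% for Acadvl. Over the 38 genes the median was 2.17%, and 13 genes were under 1%. A further 3 genes passed 20% in the second quantification only, Acsl1 with 22.8% against 0.344% in the transcript tables, Acsl3 and Eci2.

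**Figure D3:**
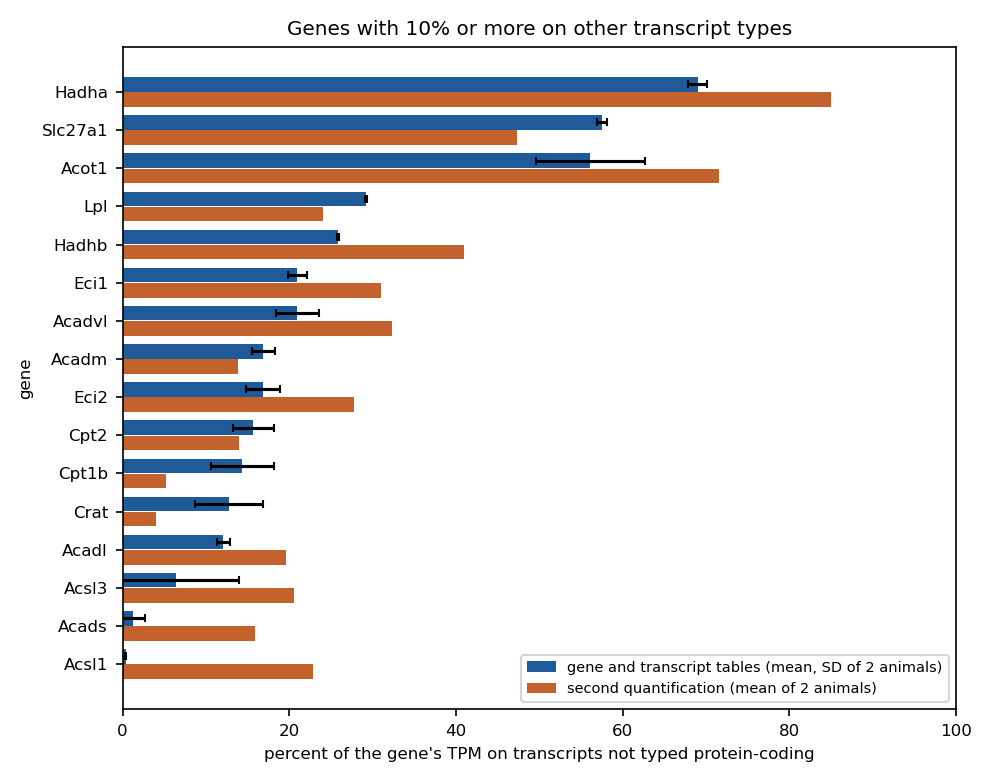
Percent of each gene's TPM on transcripts that are not typed protein-coding, for the genes at 10% or more in either quantification. Blue bars are the transcript tables, with whiskers for the SD of 2 animals, and orange bars the mean of the second quantification. Hadha, Slc27a1 and Acot1 lie above 50% in the blue bars, and the orange bars reach 85.0% for Hadha.

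The leading transcript was the same in both quantifications for 34 of 38 genes. The 4 exceptions were Slc27a1, with a retained-intron transcript (22.05 ± 0.0778%) in the transcript tables and a coding transcript (42.2 ± 4.53%) in the second quantification, Crat, Hadhb and Eci1. For Hadhb, the coding transcript Hadhb-201 held 46.9 ± 3.72% in the transcript tables, while Hadhb-208, a retained-intron transcript of 507 bases, held 25.6 ± 0.0212% there and led the second quantification with 40.9 ± 0.0535%. The effective length, by which counts are divided, was 407 bases for Hadhb-208 in the transcript tables and 259 in the second quantification, whereas for Hadhb-201 it was 1933 and 1785 bases in animal 4. In the second quantification Hadhb-201 held 2.48% in animal 4 and 28.1% in animal 2, and the coding Hadhb-203, of nearly the same length, 46.5% and 22.5%. Transcripts under 1000 bases held 20% or more of 15 members in the transcript tables, and of 14 of these also in the second quantification. They include a Cd36 transcript of 702 bases (32.8 ± 0.523% of Cd36) and an Acsl1 transcript of 368 bases (26.2 ± 0.431% of Acsl1), both typed protein-coding.

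The further lists of pathway genes had lower medians than the 38. These lists were drawn up with earlier results of these data known. The uptake list includes forms of other tissues, and 5 of its 15 genes had no count. The medians therefore describe the lists and not the pathway as a whole. Of 15 further uptake and binding genes, 5 reached 1 TPM in both libraries, with a median of 0.0850 ± 0.00707 TPM. Of 18 further mitochondrial genes, 17 did, with a median of 13.5 ± 0.103 TPM. The highest were Acss1, mitochondrial acetyl-CoA synthetase, with 94.1 TPM in animal 4 and 92.4 TPM in animal 2, then Slc25a20 and Acadsb, and Cpt1c alone was under 1 TPM. Of 15 peroxisomal genes, 12 reached 1 TPM, with a median of 5.28 ± 1.26 TPM. Scp2, a sterol carrier and thiolase gene, was the highest with 146 TPM in animal 4 and 149 TPM in animal 2. Hsd17b4, a multifunctional enzyme, had 37.9 TPM in animal 4 and 34.2 TPM in animal 2. Acox2, of bile acid synthesis, Acaa1b and Acot4 were under 1 TPM. Ehhadh, the other multifunctional enzyme, was at 5.15 ± 1.44 TPM.

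None of the 38 genes differed between the animals by the rule used, which asks for 200 summed counts, a scaled ratio of 2-fold and an exact counting interval, with an error rate of 0.001, that excludes 1. All 38 had enough counts, and over all genes the rule called 118 of 10957, or 1.08%. The log2 ratio of animal 4 over animal 2 ran from -0.33 for Fabp5 to 0.18 for Slc27a1, with a median of 0.04, beside 0.01 over all genes tested; with spike-in totals as the scale these medians were -0.0038 and -0.0341. With the TMM scale it was above 0 in 30 members and below 0 in 8. Among the 10755 nuclear protein-coding genes at 1 TPM or more in both, it was above 0 in 5831 and below 0 in 4924. On the same TMM scale, the interval alone excluded 1 for 12 members, 11 higher and 1 lower in animal 4. It did so for 18.1% of all genes tested. With spike-in totals, which lower all these ratios, this count was not taken. The members had a median of 16118 summed counts and all genes tested 1339, so their intervals were narrower. Acsl1 was higher in animal 4 by 0.14 (interval 0.10 to 0.17), with 35317 counts in animal 4 and 33308 in animal 2, and Cpt2 by 0.14 (0.06 to 0.22). Fabp5 was lower in animal 4 by -0.33 (-0.63 to -0.04). These intervals cover counting error only.

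**Figure D4:**
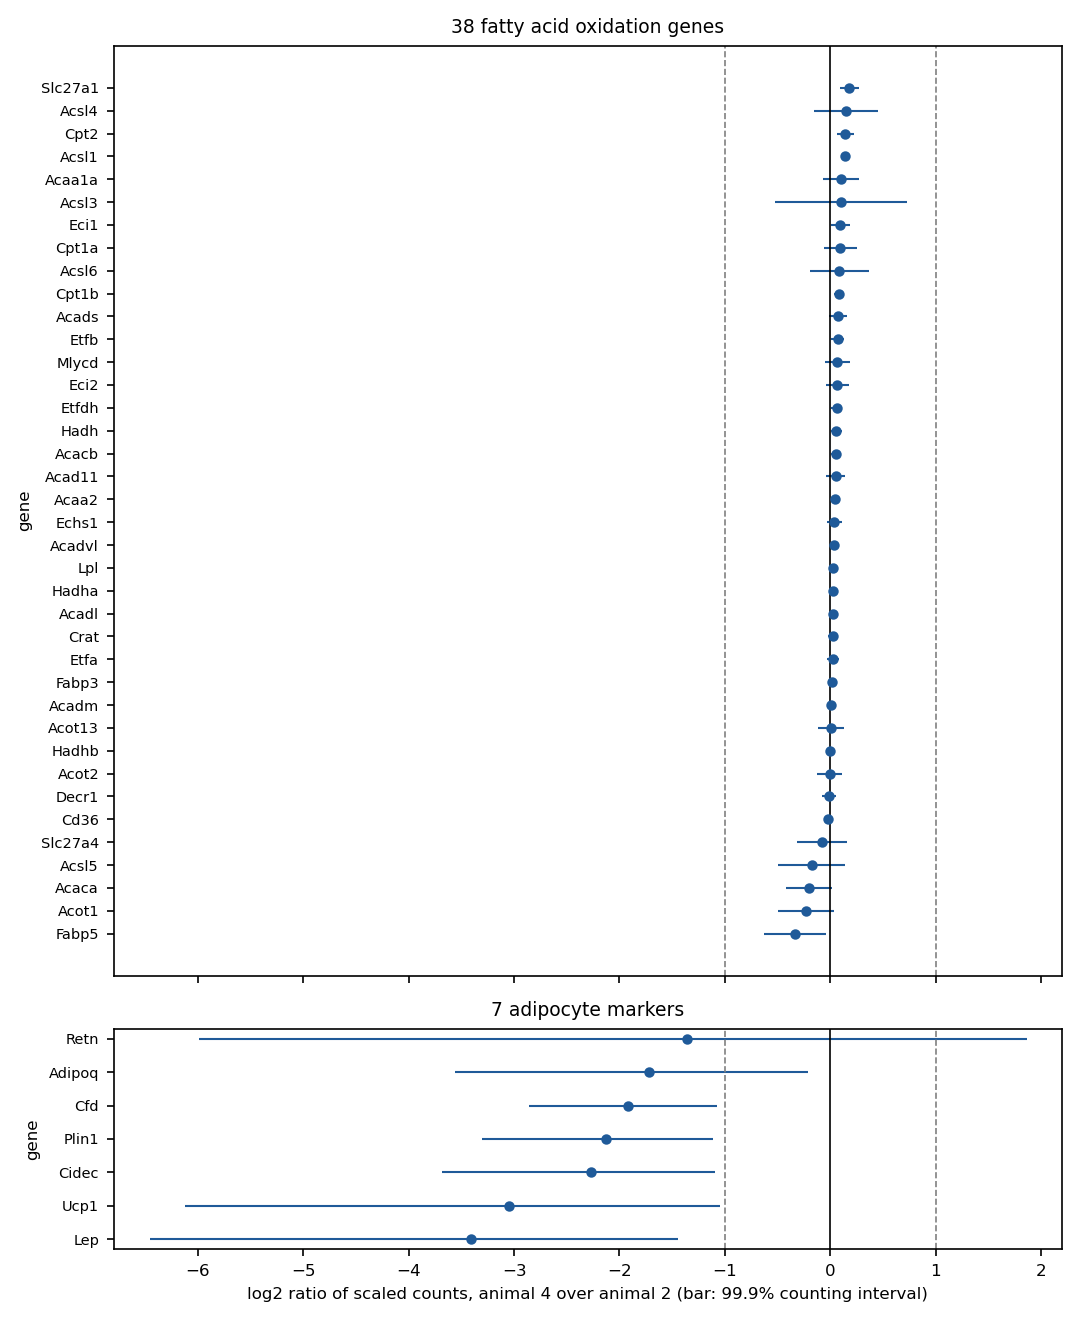
Log2 ratio of scaled counts, animal 4 over animal 2, for the 38 genes (upper panel) and 7 adipocyte markers (lower panel), with bars for the exact counting interval (error rate 0.001) and dashed lines at 2-fold. The 38 genes lie between -0.33 and 0.18, and the adipocyte markers between -3.41 and -1.36.

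The adipocyte markers were lower in animal 4 in 7 of 7, with Plin1 at 25 counts in animal 4 and 113 in animal 2, Cfd at 38 and 149, and Ucp1 at 5 and 43. Each of the 7 had under 200 summed counts, so the rule was not applied to them. Retn had only 3 counts in animal 4 and 8 in animal 2, and its counting interval included 1. Of the macrophage markers Adgre1 was called, with 193 counts in animal 4 and 512 in animal 2. The other macrophage markers were not called, with log2 ratios of animal 4 over animal 2 of -0.10 for Csf1r, 0.26 for C1qa and 0.07 for C1qb. Fat cells also express Lpl, Cd36, Fabp4 and Fabp5. The log2 ratios of these genes, animal 4 over animal 2, were 0.03 for Lpl, -0.02 for Cd36, -0.10 for Fabp4 and -0.33 for Fabp5. Fabp4 is also a form of capillary endothelium. Of the 6 endothelial markers, 3 were lower and 3 higher in animal 4, from -0.26 for Egfl7 to 0.18 for Emcn. The part of fat cells or endothelium in these ratios was not tested. The heart muscle markers were higher in animal 4 in 6 of 6, by 0.07 to 0.12. Of the further pathway lists, 0 of 5 uptake genes, 0 of 17 mitochondrial genes and 0 of 12 peroxisomal genes with enough counts were called between the animals.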

How the data were processed

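Gene and transcript tables with expected counts and TPM, and the percent of each transcript in its gene, were deposited for each library in the column layout that RSEM writes, per the file headers. The second quantification is a further deposited transcript table of estimated counts and TPM, laid out like kallisto output, per the file headers. The library file listings name mm10 and GENCODE M21, and no source used here gives an aligner or a tool version. Rows of spike-ins and 26248 rows with numeric identifiers (1 count in all) were left out.

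From these, gene symbols were joined by gene identifier, transcripts were summed to genes for the second quantification, and levels were given as mean ± SD of 2 libraries. The labels name separate animals but 1 donor entry, so the spread may be technical in part. Ratios between animals used expected counts rounded to whole numbers, scaled with TMM (edgeR 4.0.16), with exact Clopper-Pearson intervals (scipy 1.17.1); DESeq2 1.42.0 size factors and spike-in totals were alternatives. The rule was tested on simulated data. Shared 31-base stretches were counted against all GENCODE M21 transcripts on the transcript strand.

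The 38 members, the gene pairs and the lists were chosen with earlier results of these data known. All members are named. Values per library are given for the 2 highest of each step, for members with an unstable order or under 1 TPM, and for the 3 highest of each further list, of which 1 is not reported here. With 1 group there was no comparison of groups to test, and the smallest two-sided p that exact sign flips of 2 values allow is 0.5, so no p-value is given.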

Additional observations from a re-analysis of the deposited data

How the results depend on the processing

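The count of genes at 1 TPM, the count of pairs with the first gene higher and the count of equal leading transcripts stayed within 1.5 times under every alternative tried. No member was called between the animals with DESeq2 size factors, spike-in totals, the second quantification or a 1.5-fold threshold, under which 116, 120, 118 and 387 of all genes were called. Lower count minimums could not change this, since all 38 members passed the minimum of 200. The median level of the 38 genes was 131 TPM in the second quantification, 377 TPM when TPM was rescaled to nuclear protein-coding genes, 130.3 TPM over protein-coding transcripts only, and 133 to 139.9 TPM with either library left out. Their share of nuclear protein-coding TPM was 3.17% in the second quantification and 3.23 to 3.30% with either library left out. The median log2 ratio of animal 4 over animal 2 was 0.0307 with DESeq2 size factors and -0.0038 with spike-in totals, where the median over all genes tested was 0.000387 and -0.0341. Leaving out either library could not change the direction of any of the 28 pairs, since both libraries gave each pair the same order. Under another setting 7 ratios changed direction. With the second quantification the log2 ratio of Acadm over Acadvl became -0.0824. With protein-coding transcripts only it became 0.0701 for Acadl over Acadvl, -1.11 for Hadha over Hadh and 0.20 for Echs1 over Hadha. With expected counts, which keep transcript length, it became 0.37 for Etfa over Etfb, -0.72 for Etfb over Etfdh and -0.11 for Acot13 over Acot2. The cause of these changes was not tested. With 2 animals, an SD has 1 degree of freedom, which limits every error given.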
